A study of Mus musculus with 19 samples.

Results

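Transcript levels of 7 genes of secretory epithelium and of the prostate, Clca1, Psca, Muc1, Agr2, Spdef, Tmprss2 and Ltf, were examined in the urogenital sinus and the back skin of C57BL/6 mouse embryos at embryonic day 16. The genes were chosen with their levels in these 4 tissues already known, so their values are a description and carry no test. They have 12 of the 45101 probe sets of the MOE430 2.0 array and are 7 of the 17360 genes with a tested probe set. All 12 probe sets passed the filter on low values, an intensity over 20 in at least 1 sample. The 4 groups were urogenital sinus epithelium (UGE, 6 samples), urogenital sinus mesenchyme (UGM, 5 samples), epidermis (4 samples) and dermis (4 samples), all from embryos for which the labels name no treatment, each sample being a pool of tissue from several embryos. Skin and urogenital sinus came from the same embryos, so samples of different groups can share animals, and the error given is the spread between pools. The urogenital layers were separated by digestion with trypsin, and those of the skin by a night in dispase, so that site and separation method cannot be told apart. All values below are log2 intensity, the brightness of a probe set, unless a difference is named, and 1 unit of a log2 difference is a fold change of 2.

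The urogenital sinus at this stage is the tissue from which prostate buds grow out under the influence of androgen, with the epithelium giving rise to ducts and the mesenchyme sending inductive signals. Mucous and glandular epithelia share a secretory programme. In it the ETS family factor Spdef drives goblet cell differentiation, the endoplasmic reticulum disulfide isomerase Agr2 helps mucins to fold, and Clca1 is secreted with mucus. Muc1 is a membrane mucin of the apical surface of glandular cells, and Ltf encodes lactoferrin, an iron-binding protein of secretions and of neutrophil granules. Psca is a GPI-anchored surface protein known as prostate stem cell antigen, and Tmprss2 is a membrane serine protease best known for its androgen-driven promoter in human prostate. Clca1 here is the gene with Entrez number 23844, also known as Clca3 or gob-5, and not Clca3a1, for which older annotation used the same symbol.

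The tissues were checked against marker lists. The median level of 10 epithelial markers was 12.45 to 12.71 on the UGE arrays, 6.36 to 8.18 on the UGM arrays, 10.52 to 10.92 on the epidermis arrays and 7.73 to 9.16 on the dermis arrays. Mesenchymal markers were at 6.21 to 10.36 on the UGE arrays, 12.10 to 12.41 on the UGM arrays, 9.79 to 11.07 on the epidermis arrays and 12.65 to 13.18 on the dermis arrays. UGE replicates 2 and 3, at 10.31 and 10.36, stood above the other UGE samples for mesenchymal markers, and UGM replicate 2 was the highest UGM sample for epithelial markers. The cornified markers of epidermis were also bright in the dermis samples, at 9.72 to 12.39. Epidermis replicates 1, 2 and 3, at 10.98, 10.65 and 11.07 for mesenchymal markers, stood above UGE replicates 2 and 3. The median of an array lay between 6.25 and 6.35. The lower quartile lay between 4.70 and 4.92, so levels near 4 are at the dim end of the array. No detection calls were used, and a fold against such a level says little about how much transcript the dimmer tissue holds.

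Clca1, Tmprss2 and Agr2 were higher in UGE than in the other 3 tissues, with Agr2 around the array medians even in UGE. Psca was higher in both epithelia than in their mesenchymes, and Muc1 was raised in a part of the UGE samples. Spdef did not differ between the tissues beyond its spread, and Ltf was highest in dermis.

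**Figure D1:**
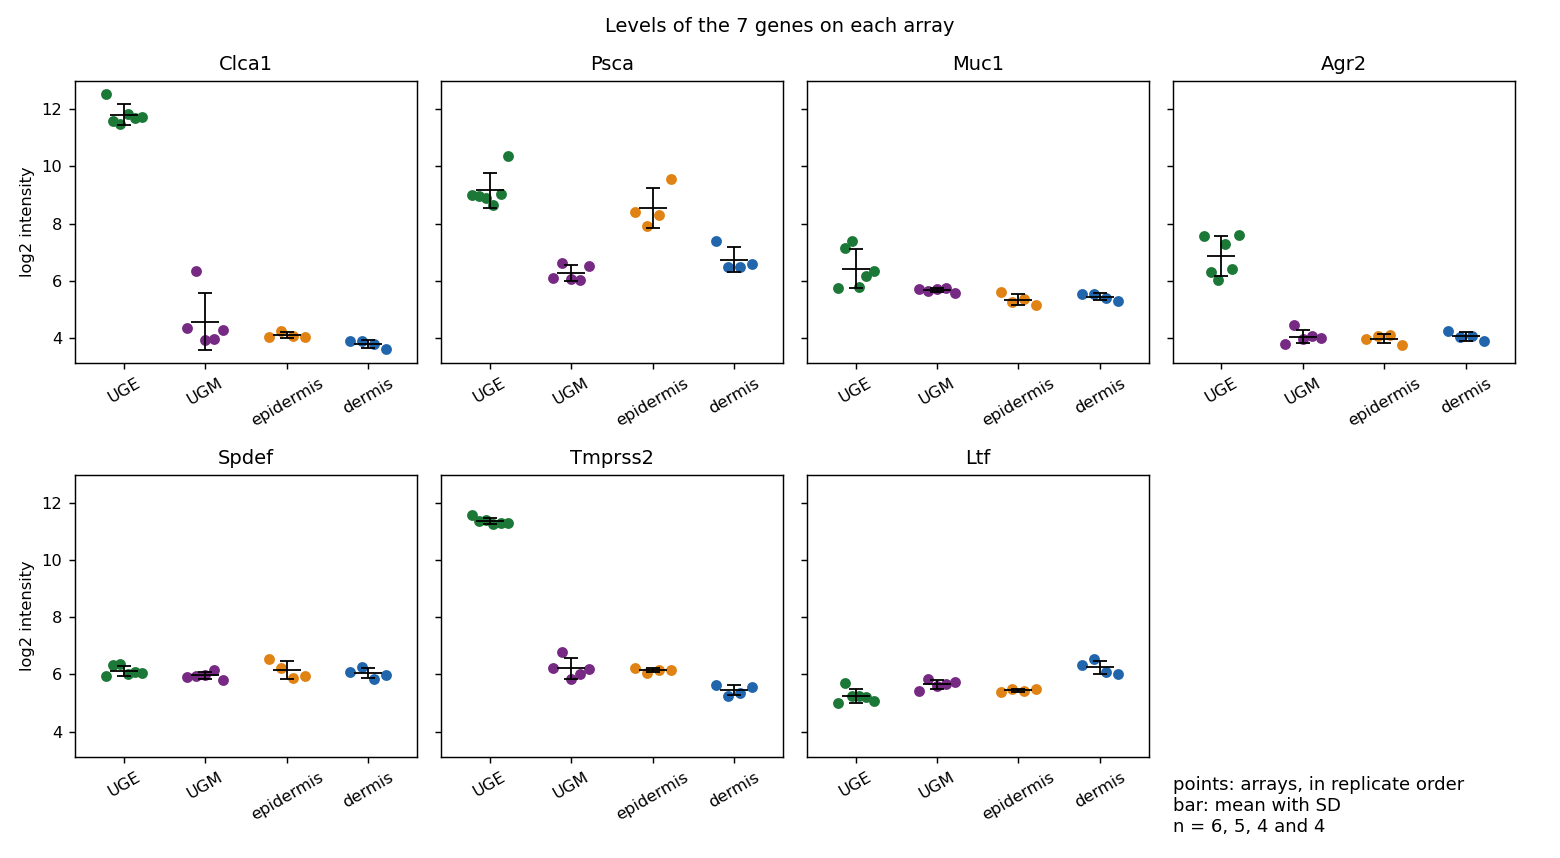
Log2 intensity of each of the 7 genes (y axis, the same in all panels) on every array of UGE (6), UGM (5), epidermis (4) and dermis (4); points are arrays in replicate order and bars are the mean with SD. Clca1 and Tmprss2 lie at 11.26 or above on every UGE array and at 6.78 or below on every other array, whereas the 4 groups of Spdef overlap.

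Clca1, the mucus-associated product, had the largest contrast between UGE and the other tissues among the 7 genes. Its levels in the 6 UGE samples ran from 11.49 to 12.53 with a median of 11.69, against 4.36, 6.34, 3.93, 3.96 and 4.29 in the UGM samples. In the skin it lay at 4.05, 4.26, 4.07 and 4.02 in epidermis and at 3.89, 3.90, 3.80 and 3.61 in dermis. UGE thus stood apart from every other sample, and UGM replicate 2, the UGM sample with the most epithelial marker signal, was the highest outside UGE. The log2 difference was 7.23 ± 0.39 (SE) between UGE and UGM and 7.70 ± 0.34 between UGE and epidermis. Between epidermis and dermis it was 0.30 ± 0.11, at levels below the lower quartile of the arrays. The order of the means was UGE at 11.80 ± 0.38 (SD, n = 6), UGM at 4.58 ± 1.01 (n = 5), epidermis at 4.10 ± 0.11 and dermis at 3.80 ± 0.14 (n = 4 each). UGM and epidermis overlapped in this order, and the highest dermis sample lay below both of them.

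Tmprss2, the membrane protease, was the most even of the 7 genes within UGE. Its UGE samples ran from 11.26 to 11.56 with a median of 11.32, against 6.21, 6.78, 5.82, 6.01 and 6.19 in UGM. The epidermis samples lay at 6.23, 6.04, 6.14 and 6.15 and the dermis samples at 5.63, 5.25, 5.33 and 5.55. UGM and epidermis therefore overlapped, while dermis was below both without overlap. The log2 difference was 5.16 ± 0.15 between UGE and UGM, which is a 35.7-fold ratio of the means, and 5.22 ± 0.14 between UGE and epidermis. It was 0.70 ± 0.11 between epidermis and dermis and 0.76 ± 0.14 between UGM and dermis. UGM replicate 2, with the most epithelial marker signal in UGM (8.18), was the highest UGM sample for Tmprss2. Replicates 3 and 4, with the least (6.36 and 6.55), were the lowest. The part of epithelium in the Tmprss2 level of UGM was not tested.

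Agr2, the disulfide isomerase of mucin-making cells, was higher in UGE than in the other tissues, with a wide spread. UGE replicates 2 and 3 lay below the medians of their own arrays, at 6.33 and 6.32. Its UGE samples had 7.57, 6.29, 6.01, 7.30, 6.40 and 7.59 from replicate 1 to replicate 6, against 3.80, 4.45, 3.96, 4.06 and 3.99 in UGM. Every UGE sample was above every UGM sample, and within UGE replicates 1, 4 and 6 were at 7.30 or above while 2, 3 and 5 were at 6.4 or below. In epidermis it lay at 3.97, 4.07, 4.11 and 3.77, and in dermis at 4.26, 4.03, 4.08 and 3.88. The log2 difference was 2.81 ± 0.30 between UGE and UGM, against -0.08 ± 0.12 between the skin layers. UGM, epidermis and dermis, with means of 4.05, 3.98 and 4.06, overlapped and did not differ beyond their spread.

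Psca, the GPI-anchored surface protein, was the member found in both epithelia. UGE ran from 8.66 to 10.37 with a median of 8.99, against 6.10, 6.61, 6.05, 6.04 and 6.52 in UGM. Epidermis had 8.39, 7.91, 8.29 and 9.55, against 7.40, 6.48, 6.48 and 6.58 in dermis. Neither pair overlapped, whereas UGE and epidermis overlapped with each other, and so did UGM and dermis. The log2 difference was 2.89 ± 0.27 between UGE and UGM, against 1.80 ± 0.34 between the skin layers. The epidermis arrays held mesenchymal marker signal of 9.79 to 11.07, and the dermis arrays cornified marker signal of 9.72 to 12.39. The part of tissue from the other layer in the skin difference was not tested. UGE minus epidermis was 0.62 ± 0.32, with a 95% interval of -0.04 to 1.28. UGE replicate 6 and epidermis replicate 4 were the highest of their groups. Dermis replicate 1, the highest of the dermis, was also the dermis sample with the highest epithelial marker level, at 9.16, and the part of epidermis in its Psca level was not tested.

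Muc1, the membrane mucin, was raised unevenly in UGE. The UGE samples had 5.76, 7.14, 7.39, 5.77, 6.15 and 6.34 from replicate 1 to replicate 6, against 5.71, 5.64, 5.72, 5.74 and 5.56 in UGM. Epidermis had 5.60, 5.25, 5.35 and 5.17 and dermis 5.53, 5.54, 5.39 and 5.30. Replicates 2 and 3 of UGE, the samples with the most mesenchymal marker signal, were the highest, and the lowest UGE sample was only 0.02 above the highest UGM sample. The log2 difference between UGE and UGM was 0.75 ± 0.28, under the fold change of 2, and it was 0.33 with UGE replicates 2 and 3 left out together. Between UGE and epidermis it was 1.09 ± 0.25, and 0.67 without these samples. The part that other tissue in these samples has in the Muc1 level was not tested.

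Spdef, the goblet cell factor, showed no contrast. Its UGE samples ran from 5.94 to 6.36 with a median of 6.06, against 5.91, 5.95, 5.99, 6.16 and 5.79 in UGM, 6.55, 6.21, 5.86 and 5.95 in epidermis and 6.09, 6.24, 5.85 and 5.99 in dermis. All 4 groups overlapped. The log2 difference between UGE and UGM was 0.17 ± 0.10 with a 95% interval of -0.05 to 0.38, and that between epidermis and dermis was 0.10 ± 0.16 with an interval of -0.26 to 0.46, so both intervals stay within a fold change of 2 either way. A single probe set reads this gene, and whether its level is above background was not tested.

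Ltf, lactoferrin, had lower means in both epithelia than in their mesenchymes. Its UGE samples ran from 5.0 to 5.71 with a median of 5.23, against 5.41, 5.85, 5.59, 5.67 and 5.72 in UGM. Epidermis had 5.38, 5.49, 5.43 and 5.47, against 6.34, 6.52, 6.09 and 6.01 in dermis. Dermis was above every sample of the other tissues, and UGE and UGM overlapped. The log2 difference was -0.40 ± 0.13 between UGE and UGM, against -0.80 ± 0.13 between the skin layers, both under the fold change of 2. Every Ltf level but those of dermis replicates 1 and 2 lay below the median of its array. A single probe set reads Ltf, and whether its levels are above background was not tested.

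**Figure D2:**
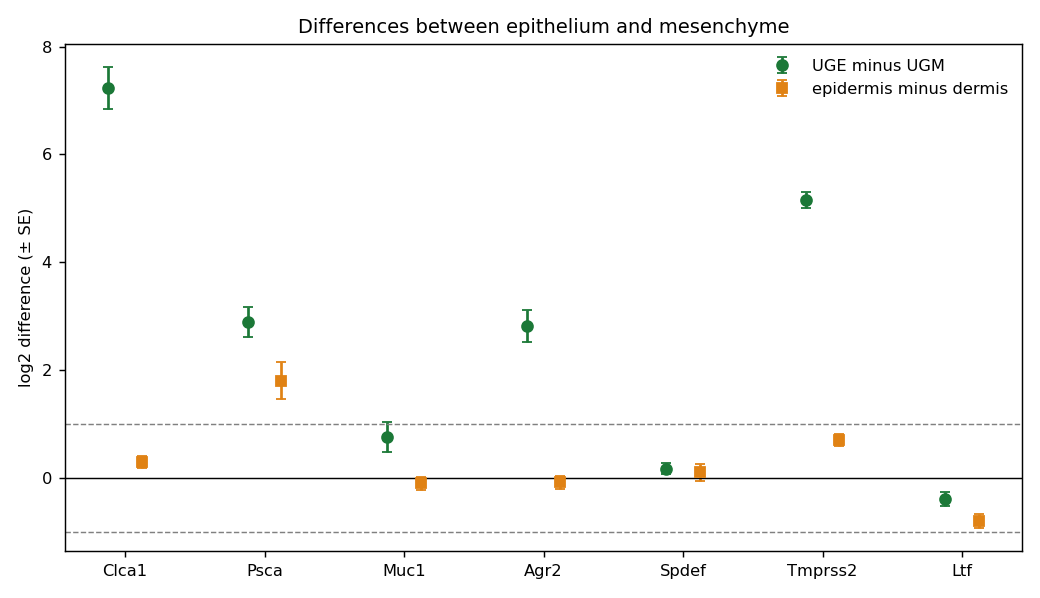
Log2 differences (y axis, with SE) of the 7 genes for UGE minus UGM (circles) and for epidermis minus dermis (squares); dashed lines mark a fold change of 2 in either direction. Clca1, Tmprss2 and Agr2 stand above the upper line in the urogenital sinus alone and Psca stands above it at both sites.

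Across all probe sets, a difference was called where limma gave a Benjamini-Hochberg adjusted p under 0.01 and the fold change was over 2. Between UGE and UGM 4 of the 7 genes were called higher in UGE (Clca1, Psca, Agr2 and Tmprss2), where 6.75% of the 17360 genes were. None of the 7 was called lower in UGE, where 10.0% of all genes were, although Ltf had an unadjusted limma p under 0.05 in that direction, making 1 of 7. Levels did not overlap, with UGE above UGM, for 5 of the 7 genes, the 4 called and Muc1, against 14.5% of all genes. Between epidermis and dermis Psca was the 1 gene called higher of 7, against 5.84% of all genes, and this call was lost with limma's treat at a fold change of 2 and with the methods' t-test. The skin layers did not overlap for Clca1, Psca and Tmprss2, with epidermis higher, where 16.0% of all genes had that pattern, nor for Ltf, with epidermis lower, where 21.8% of all genes had it. As the genes were picked from these levels, the counts are not evidence about the genes as a group.

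Across the sites, 4 of the 7 genes were called higher in UGE than in epidermis (Clca1, Muc1, Agr2 and Tmprss2), against 8.28% of all genes. The same 4 genes had every UGE sample above every one of the other 13 samples, as did 5.02% of all genes. The Muc1 call was lost when UGE replicate 2 or UGE replicate 3 was left out, with both left out, with limma's treat at a fold change of 2, with 50 added before log2 and with a group median over 100. Between UGM and dermis 0 of the 7 were called by limma, where 13.8% of all genes were called in either direction, and 3 of the 7 had an unadjusted p under 0.05 (Clca1 and Tmprss2 higher in UGM, Ltf lower). UGM lay above dermis without overlap for Clca1, Muc1 and Tmprss2, as for 18.3% of all genes, and below it for Ltf, as for 21.8% of all genes. For Clca1 the gap was 0.03, at levels below the lower quartile of the arrays, and its second probe set had UGM below dermis without overlap (log2 difference -0.17 ± 0.12). For Muc1 the gap was 0.02, and for Tmprss2 it was 0.20. The difference between the 2 sites in the epithelium to mesenchyme contrast was called for 3 of the 7 genes, against 7.53% of all genes higher in this sense. Of the 10 epithelial markers 9 were also called higher in this sense and 0 lower, with a median of 3.21. The difference was 6.92 ± 0.48 on the log2 scale for Clca1, 4.46 ± 0.20 for Tmprss2 and 2.89 ± 0.38 for Agr2. For Psca it was 1.09 ± 0.46, with a 95% interval of 0.13 to 2.05, and was not called. Of the 7 genes 6 had an unadjusted limma p under 0.05 for this difference, all in the higher sense. They were the 3 called and Psca, Muc1 and Ltf. For Psca the difference between the sites thus did not meet the rule for a call, and the sites were not shown to be alike.

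Of the 7 genes, Clca1, Agr2 and Tmprss2 were read by more than 1 probe set. The second probe set of Clca1 averaged 4.87 ± 0.27 in UGE (SD, n = 6) against 3.51 ± 0.09 in UGM, a log2 difference of 1.36 ± 0.13, with the same direction as the first but at a dim level. The second of Agr2 averaged 4.73 ± 0.72 in UGE against 3.25 ± 0.12 in UGM, a log2 difference of 1.48 ± 0.29. Over the 19 samples these correlated with the first probe set of their gene at r = 0.945 and r = 0.901. The second of Tmprss2 followed the first at r = 0.996 and gave a log2 difference of 5.27 ± 0.11 between UGE and UGM. The same probe set gave 1.14 ± 0.13 between UGM and dermis, which was called, and 1.0 ± 0.14 between epidermis and dermis, just under a fold change of 2. UGM replicate 2 was again the highest UGM sample, at 6.26. The third of Tmprss2 gave 1.41 ± 0.10 between UGE and UGM but -0.16 ± 0.12 between UGM and dermis, which overlapped. The fourth stayed between 4.17 and 4.53 on every array, so it did not show the contrast seen by the other 3. These coefficients are across samples that share 4 groups and describe the agreement of the probe sets.

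**Figure D3:**
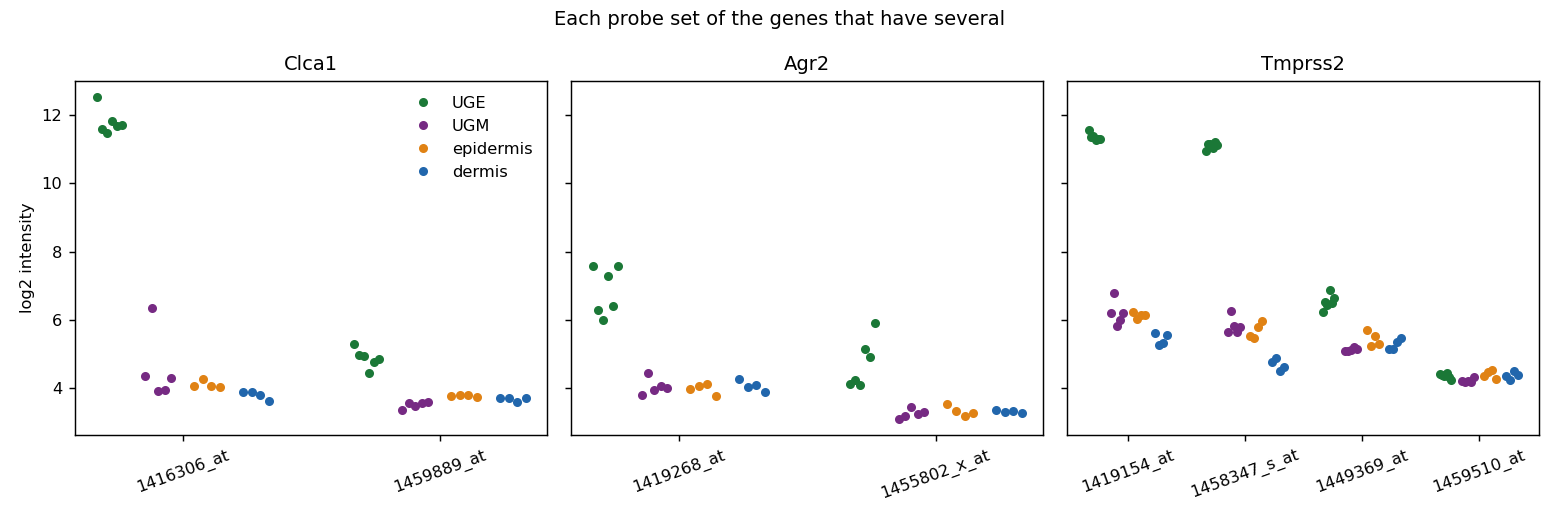
Log2 intensity (y axis) of each probe set of Clca1, Agr2 and Tmprss2 (x axis) on every array, coloured by group, with UGE leftmost within each probe set. All probe sets but the rightmost of Tmprss2 have their UGE arrays above those of UGM.

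Promoter windows of 5 of the 7 genes (Agr2, Ltf, Muc1, Spdef and Tmprss2) were at hand, from RefSeq on GRCm38.p6, each of 250 bases before and 50 after 1 annotated start. For Tmprss2 and Spdef this start lies inside the annotated span of the gene and not at its 5′ end, where no window was searched. The windows of Agr2 and Tmprss2 are shown because both genes were called higher in UGE than in UGM. That of Muc1 is shown because this gene was raised in only a part of the UGE samples. The windows lie at chr12:35992675-35992974 on the plus strand for Agr2, at chr16:97611146-97611445 on the minus strand for Tmprss2 and at chr3:89228806-89229105 on the plus strand for Muc1. Capitals mark matches to the motifs searched, and each sequence runs 5′ to 3′ along the gene.
Agr2: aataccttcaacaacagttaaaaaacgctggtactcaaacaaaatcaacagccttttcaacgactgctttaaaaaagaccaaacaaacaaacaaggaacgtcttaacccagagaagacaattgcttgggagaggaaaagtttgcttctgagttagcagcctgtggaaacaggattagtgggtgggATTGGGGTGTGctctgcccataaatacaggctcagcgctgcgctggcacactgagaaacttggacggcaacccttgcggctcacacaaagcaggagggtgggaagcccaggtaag
Tmprss2: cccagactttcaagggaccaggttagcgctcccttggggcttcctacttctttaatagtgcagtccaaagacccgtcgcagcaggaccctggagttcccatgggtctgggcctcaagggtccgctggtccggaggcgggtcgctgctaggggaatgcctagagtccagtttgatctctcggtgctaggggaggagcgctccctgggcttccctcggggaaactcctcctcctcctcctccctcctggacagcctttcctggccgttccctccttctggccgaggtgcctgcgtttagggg
Muc1: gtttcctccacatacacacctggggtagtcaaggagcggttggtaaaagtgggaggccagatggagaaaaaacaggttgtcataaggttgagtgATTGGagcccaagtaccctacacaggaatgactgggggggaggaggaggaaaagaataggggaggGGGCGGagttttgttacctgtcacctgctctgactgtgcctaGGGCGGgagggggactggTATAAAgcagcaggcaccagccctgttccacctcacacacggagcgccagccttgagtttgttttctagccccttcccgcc
The 10 motifs were searched on both strands. The Agr2 window held CCAAT on the minus strand at -65, and at -61 on the same strand a match to CACACCC that shares a base with it. The Muc1 window held TATAAA at -31, GGGCGG at -91 and -49, and CCAAT on the minus strand at -156. The Tmprss2 window held none of the 10 motifs and was the richest of the 5 in G and C, at 62.3% against 47.3% for Agr2 and a median of 52.7% over 32851 windows of this length. Of the other windows, that of Ltf held CCAAT and AGATAA and that of Spdef held AGAACA. Of the motifs, CCAAT was in 3 of the 5 windows and in 37.4% of all windows, the KLF and SP motif GGGCGG in 1 of 5 and in 35.7%, the other such motif CACACCC in 1 of 5 and in 7.95%, the steroid receptor half-site AGAACA in 1 of 5 and in 19%, TATAAA in 1 of 5 and in 13.6%, and the GATA motif AGATAA in 1 of 5 and in 11.2%. The remaining motifs matched 0 of the 5 windows. Of these, the forkhead motif TGTTTAC was in 3.65% of all windows and its variant TGTTTGC in 5.07%, and the ETS motif CCGGAA was in 14.9% and its variant CCGGAT in 6.04%. A match is a run of letters and says nothing of binding in these tissues.

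For each gene, the 3 genes whose levels over the 19 samples were most like it were found among all 17360. The closest to Clca1 were Tmprss2 (r = 0.994), the forkhead factor Foxa2 (r = 0.991) and the keratin Krt75 (r = 0.991). Those of Tmprss2 were Clca1, Foxa2 (r = 0.993) and the epithelial sodium channel subunit Scnn1g (r = 0.992), so Clca1 and Tmprss2 were each other's closest match. Foxa2 averaged 10.45 in UGE, 5.14 in UGM, 4.97 in epidermis and 4.97 in dermis. Agr2 was most like the aspartic protease Ctse (r = 0.981), Gsdmc2 of the gasdermin family (r = 0.980) and Slc35g1 (r = 0.979). Ctse had 10.08, 9.53, 9.59, 10.11, 9.68 and 10.34 in the UGE samples, so that replicates 1, 4 and 6 were again the highest, as for Agr2. Psca was closest to the arginase gene Arg1 (r = 0.962), the simple epithelial keratin Krt7 (r = 0.958) and Proser2 (r = 0.956), which were all higher in both epithelia than in their mesenchymes by their means. For Spdef the best values were lower, 0.827 for 1700084F23Rik, 0.818 for 1700018B24Rik and 0.814 for Nacc2. All these coefficients describe samples that share 4 groups.

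Muc1 was most like Lhx1 (r = 0.955), Midn (r = 0.933) and Pax8 (r = 0.925), of which Lhx1 and Pax8 are transcription factors of the embryonic kidney and its duct. Lhx1 had 6.81 and 7.21 in UGE replicates 2 and 3 and 5.08 to 5.34 in the other UGE samples, against 4.54 to 4.77 in UGM. Pax8 had 5.89 and 6.30 in the same samples and 4.71 to 5.14 in the other UGE samples, against 4.46 to 4.98 in UGM. Muc1, Lhx1 and Pax8 were thus high in the same pair of UGE samples, and the part of duct tissue in the Muc1 level was not tested.

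Ltf was most like Fam78a (r = 0.945), the ankyrin gene Ank1 (r = 0.942) and S100a8 (r = 0.931), a calcium-binding protein abundant in neutrophils. S100a8 had 4.47 to 5.06 in UGE, against 5.38 to 6.52 in UGM, and 5.25 to 5.75 in epidermis, against 7.41, 7.92, 7.60 and 7.13 in dermis. The median of 11 neutrophil granule genes was 4.85 to 5.46 on the UGE arrays, 5.38 to 5.69 on the UGM arrays, 5.45 to 5.85 on the epidermis arrays and 6.04 to 6.17 on the dermis arrays. Of these 11 genes, 5 (Ngp, Camp, S100a8, S100a9 and Ctsg) had every dermis sample above every other sample, as did 6.09% of all genes, and the other 6 did not. The granule protease Prtn3 was highest in UGM, at 7.58 to 8.75, against 7.05 to 7.16 in dermis. The elastase Elane overlapped between epidermis, at 5.56 to 6.08, and dermis, at 5.83 to 5.90, and the protease Mmp9 was highest in UGE replicates 2 and 3, at 6.62 and 6.57. Of the 11, 2 were called lower in epidermis than in dermis, against 11.1% of all genes, and 3 were called lower in UGM than in dermis, against 7.00%. The list median was thus highest in dermis, as Ltf was, while its genes did not all follow Ltf, and the part of neutrophils in the Ltf level was not tested. In bulk samples fewer cells of a type and less RNA per cell cannot be told apart.

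**Figure D4:**
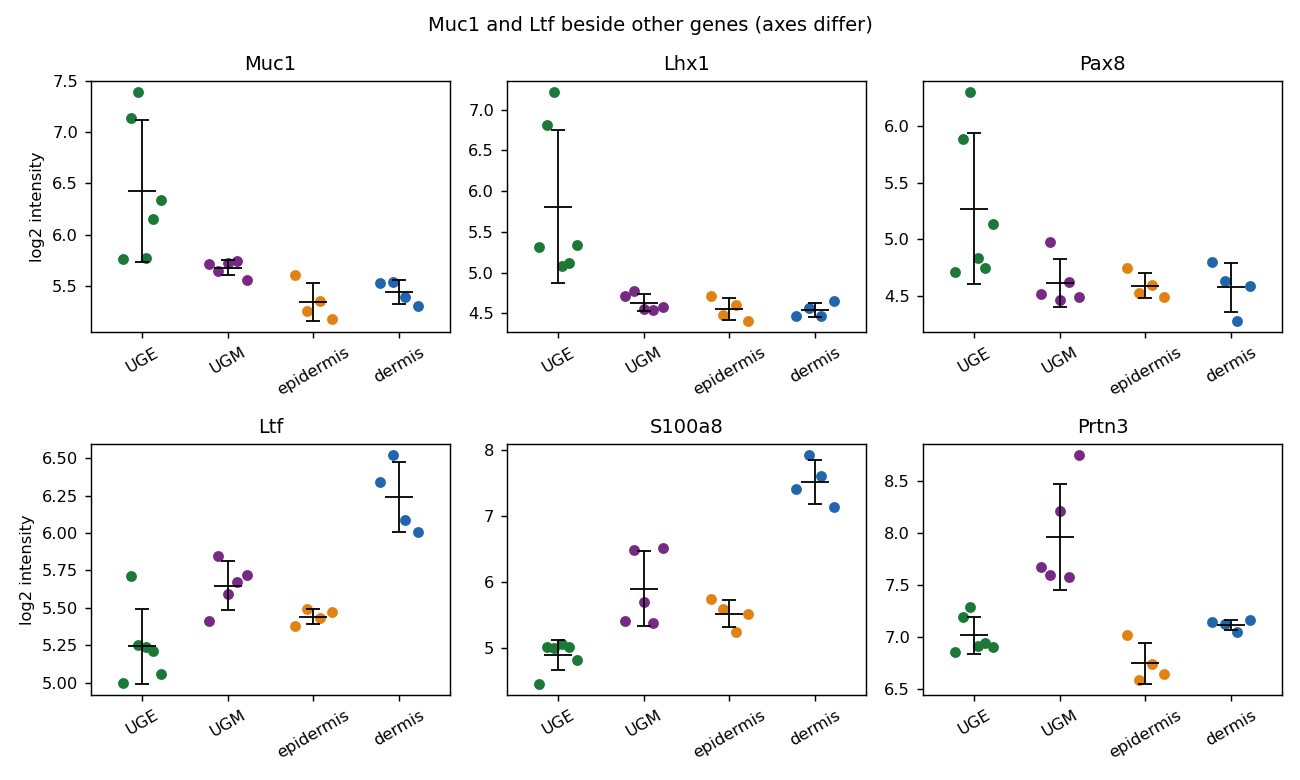
Log2 intensity (y axis, a different scale in each panel) of Muc1, Lhx1 and Pax8 in the upper row and of Ltf, S100a8 and Prtn3 in the lower row, on every array; points are in replicate order and bars are the mean with SD. UGE replicates 2 and 3 are the highest arrays in all 3 upper panels, and the 4 dermis arrays are the highest for Ltf and S100a8, whereas the UGM arrays are the highest for Prtn3.

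The families and pathways of the 7 genes were followed in 9 lists. Of 7 tested CLCA and epithelial chloride channel genes 3 rose in UGE against UGM, Clca3a2 by 6.73 ± 0.34 on the log2 scale, Clca3a1 by 3.71 ± 0.37 and Clca2 by 3.40 ± 0.27. The median of the list was 0.40 against 0.02 over all genes. In epidermis against dermis 4 of the 7 rose, these 3 and the chloride channel Cftr (1.41 ± 0.27). Clca3a2 averaged 11 in UGE, 4.27 in UGM, 10.71 in epidermis and 7.74 in dermis, and its log2 difference in the skin was 2.97 ± 0.50, beside 0.30 ± 0.11 for Clca1. The sequences of Clca3a1 and Clca3a2 are alike, and probe sets annotated to both were left out.

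Between the layers of each site Muc1 was not called, and neither were most other mucin genes. Of 16 tested mucins and glycosyltransferases 4 rose in UGE, namely the membrane mucins Muc15 (3.99 ± 0.59) and Muc4 (3.14 ± 0.23) and the O-glycosylation enzymes Galnt3 (2.06 ± 0.18) and Galnt12 (1.58 ± 0.23), and the list median was 0.15. In epidermis Muc15 (3.0 ± 0.54) and Galnt3 (1.89 ± 0.22) rose against dermis, with a list median of 0.01. Of 16 mucous and airway type secretory products, the whey acidic protein domain gene Wfdc2 rose in UGE by 3.75 ± 0.21, while the lysozyme Lyz1 fell by 2.64 and Lyz2 fell by 1.91, and the other 13 were not called. In epidermis against dermis Lyz1 fell by 3.21 and Lyz2 fell by 2.79. Lyz2 is made by macrophages. The macrophage marker median was 6.23 to 7.30 on the UGE arrays and 8.13 to 8.67 on the UGM arrays. It was 6.40 to 7.97 on the epidermis arrays and 9.12 to 9.40 on the dermis arrays. The part of macrophages in the lysozyme differences was not tested.

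Of 20 genes for disulfide isomerases of the endoplasmic reticulum, like Agr2, and for chaperones and stress response factors of secretory load, 19 were not called between UGE and UGM, and the list median was -0.28. The 1 called was the factor Creb3l1, known from collagen-secreting cells, which fell in UGE by 2.54 on the log2 scale (SE 0.23). In epidermis 4 of the 20 fell against dermis, Creb3l1, Pdia5, Txndc5 and Dnajc10, with a median of -0.39. Over all genes the medians were 0.02 in the urogenital sinus and 0.01 in the skin.

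Among 18 ETS factors, the family of Spdef, 5 rose and 3 fell in UGE. The epithelial members Ehf (5.92 ± 0.38), Elf5 (5.75 ± 0.24) and Elf3 (3.73 ± 0.17) rose most, with Elf1 (2.34 ± 0.28) next, while Ets1 fell by 2.94 and, of the endothelial factors, Erg fell by 1.93 and Fli1 fell by 1.33. Endothelial markers were at 4.88 to 6.09 in UGE against 7.98 to 8.85 in UGM. The part of endothelial cells in the Erg and Fli1 differences was not tested. In the skin 4 of the 18 rose in epidermis and 5 fell, where Elf5 (3.37 ± 0.45) and Ehf (2.19 ± 0.52) rose most and Erg fell by 3.04. The other 10 were not called between UGE and UGM, and neither was Spdef, which is not counted in this list.

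Of 16 membrane-bound serine proteases and inhibitors, the family of Tmprss2, 9 rose in UGE and the median was 2.17. The largest were the inhibitor Spint1 (5.28 ± 0.18), Tmprss13 (4.84 ± 0.13), Prss8 (4.64 ± 0.25) and the matriptase gene St14 (4.41 ± 0.17). Spint1 is also on the list of epithelial markers. In epidermis 7 of the 16 rose against dermis, and the median was 0.53. Tmprss13 averaged 9.50 in UGE, 4.66 in UGM, 10.13 in epidermis and 7.77 in dermis, so its epidermis mean was above its UGE mean, while that of Tmprss2 was below it. Of 16 Ly6 and uPAR domain genes, the family of Psca, 5 rose and 2 fell in UGE, with a median of 0.57. Lypd2 (5.25 ± 0.21), Lypd3 (4.74 ± 0.16), Lypd6b (3.48 ± 0.20) and Ly6d (2.23 ± 0.16) were the largest, and the endothelial Gpihbp1 fell by 2.18 and the neural Ly6h fell by 1.90. The median of 4 neuronal markers was 5.41 to 6.6 on the UGE arrays, against 11.88 to 12.13 on the UGM arrays, and their part in the Ly6h difference was not tested. In epidermis 4 rose and 3 fell, with a median of -0.01.

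Of 12 genes of the adult mouse prostate epithelium 3 rose in UGE, the homeobox factor Hoxb13 (4.94 ± 0.22), the acid phosphatase Acpp (4.11 ± 0.14) and the protease Mmp7 (2.20 ± 0.21), and 9 were not called, with a list median of 0.25. Acpp also rose in epidermis against dermis, by 1.78 ± 0.29. Of 15 progenitor and basal cell genes 10 rose and 2 fell in UGE, and the median was 4.92. The largest were Krt15 (6.73 ± 0.51), Trp63 (6.25 ± 0.34), Foxa1 (5.82 ± 0.28) and Krt5 (5.60 ± 0.32), while Cd44 fell by 2.32 and Prom1 fell by 2.05. In epidermis 2 of the 15 rose, Trp63 (1.22 ± 0.25) and Krt15 (1.19 ± 0.19), and 3 fell, of which Sox2 fell by 2.05 and Prom1 fell by 2.14. The dermis arrays also held cornified marker signal, at 9.72 to 12.39, and the epidermis arrays mesenchymal marker signal, at 9.79 to 11.07. The part of tissue from the other layer in these skin differences was not tested. For every list the shares called stand beside 6.75% of all genes higher and 10.0% lower in UGE, and 5.84% higher and 11.1% lower in epidermis. The 10 epithelial markers were all called higher in UGE, with a median of 4.98. In epidermis 9 of the 10 were called higher, with a median of 1.97.

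**Figure D5:**
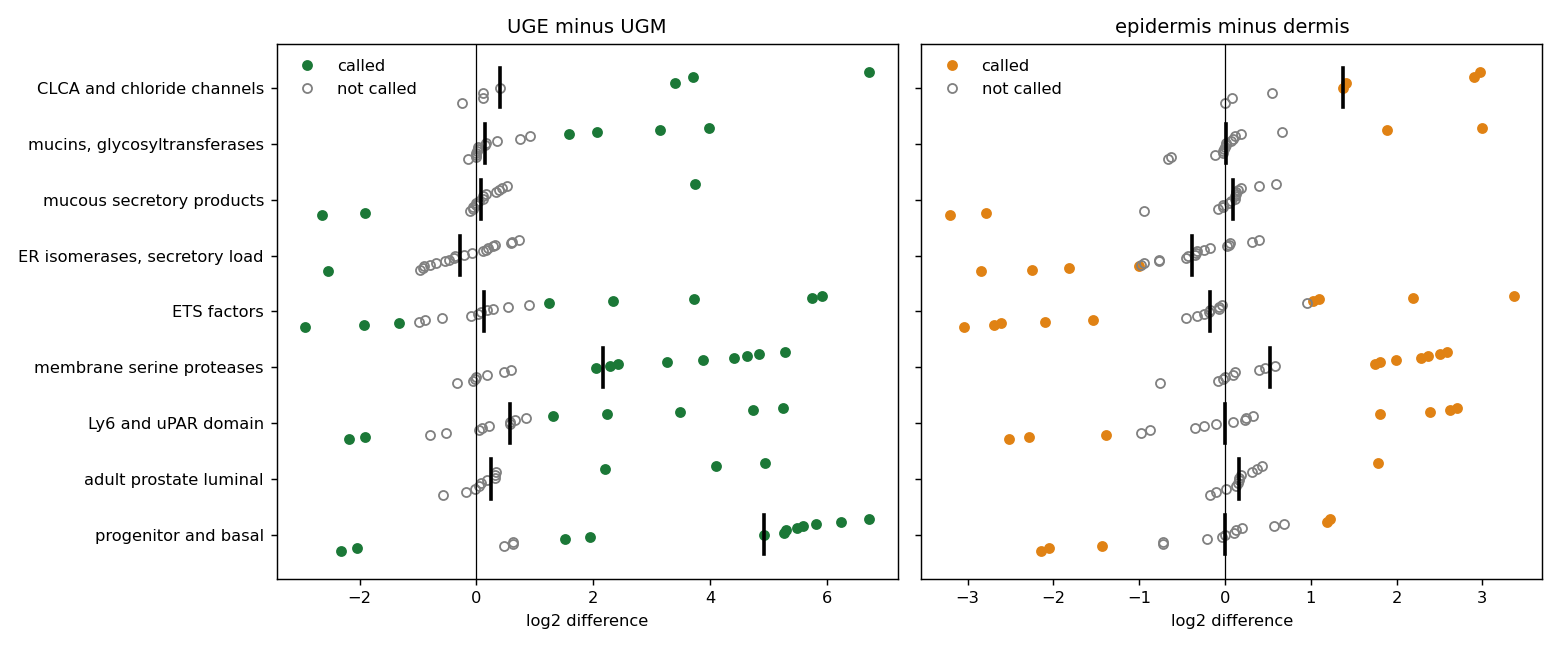
Log2 differences (x axis) of each tested gene of the 9 lists (rows), UGE minus UGM on the left and epidermis minus dermis on the right; filled points were called, open points were not, and the black bar is the list median. Serine proteases and progenitor and basal genes have medians of 2.17 and 4.92 in the urogenital sinus, whereas the isomerase and secretory load genes have a median of -0.28. The list of 10 epithelial markers, not drawn as a row, has a median of 4.98 there.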

How the data were processed

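The deposited table holds linear intensity per probe set, normalized between arrays by the authors. GCOS 1.4, MAS5 and PLIER are named in the methods, but not which of them made the table. Groups came from sample titles. Values were put on the log2 scale with no further normalization, 64 controls were left out, and 41549 probe sets with an intensity over 20 in at least 1 of 19 samples were tested. Each gene stands by its brightest tested probe set with 1 gene symbol, and probe sets naming several genes were not used. Under R 4.3.3, limma 3.58.1 (eBayes after lmFit, 2-sided, Benjamini-Hochberg over all tested probe sets) was fitted to UGE and UGM, to epidermis and dermis, and to all 4 groups for comparisons across sites. The procedure was tested on simulated data. Intervals of 95% come from the same fits. The number of arrays limits the precision.

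The 7 genes, the 9 lists and the 8 marker lists were chosen with earlier results of these data known. Named genes were the 7, the 3 most like each by Pearson r, and of each list up to 4 called members with the largest difference and called members against its direction, with some further called members given beside a count of 5 or fewer. S100a8 entered by this rule, and the other neutrophil genes were named after their values were seen.

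Samples of epidermis and dermis with the same number deviated together from their group means (r = 0.343, 0.108, 0.264 and 0.168), and since each r was over 0.1 the numbers were treated as pairs in an alternative fit. Epidermis replicate 2 correlated better with another number (0.299), the methods state no pairing and used an unpaired test, and all SEs and intervals of the report come from fits without the block. Alternatives were quantile normalization, 50 added before log2, other filters, thresholds, variance models and probe sets, and limma's treat. Further ones were an unpaired t-test like that of the methods, 1 fit of all groups and the replicate number as a block. Each replicate was also left out singly, and UGE replicates 2 and 3 as a pair. Leaving these and UGM replicate 2 out together, and the lists without UGE replicates 2 and 3, were added after seeing the data.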

Additional observations from a re-analysis of the deposited data

Results flagged for a closer look

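In 5 of the 28 sets of a gene and a group, 1 sample stood far from the rest of its group by Dixon's criterion, which chance alone would meet in about 5% of groups. Clca1 had 12.53 in UGE replicate 1 and 6.34 in UGM replicate 2, the UGM sample with the highest epithelial marker level (8.18). Psca had 10.37 in UGE replicate 6 and 7.40 in dermis replicate 1, the dermis sample with the highest epithelial marker level (9.16). Ltf had 5.71 in UGE replicate 2, a sample with raised mesenchymal markers (10.31), but 5.25 in UGE replicate 3, where these markers were as high (10.36). The part of tissue from the other layer in these levels was not tested.

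The contrast of epithelium and mesenchyme differed between the 2 sites in the limma fit of all 4 groups for 3 genes, by 6.92 for Clca1, 4.46 for Tmprss2 and 2.89 for Agr2 on the log2 scale, in each case larger in the urogenital sinus. Of the 10 epithelial markers 9 were called in the same direction. Site and separation method cannot be told apart in these differences, and the part of tissue from the other layer in them was not tested.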

How the results depend on the processing

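Counts of called genes among the 7 stayed within 1.5 times the main value under the other settings, with 3 exceptions. Between epidermis and dermis the count was 0 in place of 1 with limma's treat at a fold change of 2. It was also 0 with the unpaired t-test on the deposited values, and Psca was no longer called in either. Between UGM and dermis it was 1 in place of 0 with the probe set of highest variance, by the second probe set of Tmprss2. Leaving out 1 replicate at a time gave 3 to 4 called genes between UGE and epidermis, and left 4 between UGE and UGM, 1 between epidermis and dermis, 0 between UGM and dermis and 3 for the difference between sites. Muc1 was the gene lost between UGE and epidermis, without UGE replicate 2 and without UGE replicate 3. With 50 added before log2, a group median over 100, limma's treat at a fold change of 2, or UGE replicates 2 and 3 left out together it was lost too, leaving 3. Over the lists, 50 genes were called between UGE and UGM (49 to 51 without 1 replicate, and 54 without UGE replicates 2 and 3) and 41 between epidermis and dermis (33 to 43).

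With the replicate number as a block, 1 of the 7 genes was called between epidermis and dermis and 4 between UGE and UGM, the same genes as without it. The SE of the 7 genes between epidermis and dermis was 0.10 to 0.29 with the block and 0.11 to 0.34 without it. The urogenital numbers did not pair the samples as a set (same-number r of 0.648, 0.006, -0.122, 0.138 and -0.406). Only for replicate 1 was this r above the best with another number (0.072). UGE replicates 2 and 3 correlated at 0.521 and 0.541 with a UGM sample of another number, so some samples of the 2 layers deviated together. No called difference of the 7 genes changed sign under any setting run. The largest shifts came with 50 added before log2, which shrinks differences of dim genes: Agr2 between UGE and UGM was 1.35 and Clca1 5.55. Levels near the dim end of the arrays limit every fold that has them below.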
